A study of Capra hircus with 21 samples.

Results

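RNA polymerases copy genes into RNA, and the general transcription factors and Mediator place them on promoters and start them. The genes described here are those whose symbol begins with POLR1, POLR2, POLR3, GTF2 or GTF3, with TAF or MED followed by a digit, or with TBPL, or is TBP itself, a rule on names that uses no measured value. It found 84 of the 19040 genes in the deposited table, all of them protein coding. No row carried the symbol TBP, POLR2A, GTF2E2, TAF1, TAF7, TAF9, MED12, MED17 or MED26, so these genes are not described here. Mediator gave 25 members, RNA polymerase II (Pol II) 11, its general factors TFIIA to TFIIH another 11, and the TBP-associated factors (TAFs) grouped under TFIID 11, one of which, TAF6L, belongs to SAGA. Pol I gave 5 members and its promoter factor SL1 4, while Pol III gave 7 and its factor TFIIIC 6. The remaining 4 were the TBP-like factors TBPL1 and TBPL2 and the TFII-I family genes GTF2I and GTF2IRD1, whose symbols meet the rule although their proteins are not core parts of the machinery.

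The study sequenced RNA from goat (Capra hircus) oocytes that had matured in the animal and from embryos that had developed in the animal to 2, 4, 8 or 16 cells, to the morula or to the blastocyst. Each of these 7 stages had 3 libraries, lettered A to C, which makes 21 in all. The labels name no treatment, strain, age or genetic change, and they do not say how many oocytes or embryos a library held or whether libraries of a stage came from different animals. What a p-value is set against is thus the scatter of these libraries alone, and that scatter may be technical.

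As background, a general transcription factor binds a promoter before the polymerase does. TBP, or in some cells a TBP-like factor, bends promoter DNA inside TFIID or with TFIIA, and TFIIB, TFIIE, TFIIF and TFIIH then bring in Pol II and open the DNA. Mediator links activators on enhancers to Pol II through its tail, middle and head, and a separable kinase module regulates it. Pol I makes the large ribosomal RNA with SL1 and Pol III makes transfer RNAs and other small RNAs with TFIIIC. In mammals a full-grown oocyte is transcriptionally silent, the first cleavages run on stored maternal RNA, and the embryo's own genome becomes active over the cleavage stages, mainly around the 8-cell to 16-cell stage in ruminants. Germ cells use variants of the machinery. In mouse oocytes TBPL2 takes the place of TBP, GTF2A1L is a germ-cell form of the large TFIIA subunit, and TAF4B is a gonad-enriched form of TAF4.

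Levels are given in RPM, the reads of a gene scaled to a fixed library total, recovered from the deposited RPKM by removing the offset and the gene span that the authors' values contain. RPM is not corrected for length, so a level is compared between stages of a gene and never between genes. Means are given ± SD over the 3 libraries of a stage (n = 3 throughout), and fold changes are on the log2(RPM + 1) scale, which understates changes of low genes. A member was called, and is said to have risen or fallen, at a Benjamini-Hochberg adjusted p below 0.05 over all genes tested with limma and an absolute log2 fold change of at least 1. Libraries of 2 stages that do not overlap were common among all genes tested. At the 2-cell stage against oocytes 46% lay wholly higher and 4.33% wholly lower. The shares were 20.9% and 43.8% at the 16-cell stage against the 8-cell stage, and 13.8% and 8.49% in morulae against 16-cell embryos. They were 8.76% and 31.2% in blastocysts against morulae, and 25.2% and 44.7% in blastocysts against oocytes.

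The libraries held about 8471000 to 26720000 reads in genes, so that 3 reads, taken as the floor of detection, amounted to 0.0450 to 0.125 RPM, counting error only. Among the members 77 of 84 (91.7%) reached 1 RPM in at least 3 libraries and were tested, beside 10384 of 19040 genes (54.5%). Those left untested include MED9, MED25, POLR2K, TAF6L, GTF3C1 and GTF3C4. The library 16-cell C lay nearest of its stage to the 8-cell mean in 53 of the 77 members, and morula C nearest to the 16-cell mean in 34. On the first principal component of all genes (63.2% of the variance) 16-cell C stood at -3.65, against 57.3 and 61.2 for its stage mates, and morula C stood at 38.9, against 127 and 130.5. The summed level of 9 oocyte and maternal markers followed the stage labels, with 6042 to 13170 RPM in oocytes, 5034 to 5606 RPM at the 8-cell stage, 874 to 3169 RPM at the 16-cell stage, 45.98 to 1283 RPM in morulae and 3.58 to 20.7 RPM in blastocysts. That of 10 markers of genome activation and blastocyst lineages was 2133 to 2333 RPM in blastocysts and 59.3 to 87.5 RPM in oocytes. Lists of markers of cells that can cling to oocytes and embryos were summed as well. The cumulus and granulosa, stroma and endothelium, and oviduct and uterine epithelium lists had lower sums in blastocysts than in oocytes, although single genes of them rose. The cumulus and granulosa list (9 genes found of 13, 2 tested) summed to 33.6 to 58.3 RPM in oocytes, where FSHR, LHCGR and AMH were at 0, to 28.3 to 42.8 RPM at the 2-cell stage, 15.9 to 25.3 RPM at the 8-cell stage, 21.3 to 47.5 RPM at the 16-cell stage, 1.26 to 51.6 RPM in morulae and 1.17 to 3.599 RPM in blastocysts. The stroma and endothelium list (6 of 7 found, 4 tested), carried mainly by DCN, summed to 110.5 to 150.2 RPM in oocytes, 86.9 to 146.2 RPM at the 2-cell stage, 67.9 to 81.1 RPM at the 8-cell stage, 33.9 to 99.3 RPM at the 16-cell stage, 1.28 to 58.9 RPM in morulae and 3.67 to 10.51 RPM in blastocysts. Within these lists COL1A2 rose to 12.1 ± 3.49 RPM at the 16-cell stage, against 0.728 ± 0.228 RPM at the 8-cell stage (log2 fold change 2.90, SE 0.43, adjusted p = 2.01e-05). PECAM1 rose to 5.74 ± 2.72 RPM in blastocysts, against 0.158 ± 0.0425 RPM in morulae (log2 fold change 2.45, SE 0.24, adjusted p = 7.38e-08). TNFAIP6 held 24.7 ± 14.1 RPM at the 16-cell stage, against 6.10 ± 5.06 RPM at the 8-cell stage, which was not called (adjusted p = 0.0548). The oviduct and uterine epithelium list (5 of 7 found) stayed at or below 13.2 RPM, and the leukocyte list (5 of 7 found) at or below 3.55 RPM, in every library. The leukocyte list was higher in blastocysts, at 0.263 to 0.442 RPM, than in oocytes, at 0 to 0.247 RPM. The part of these cells in the results below was not tested.

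**Figure D1:**
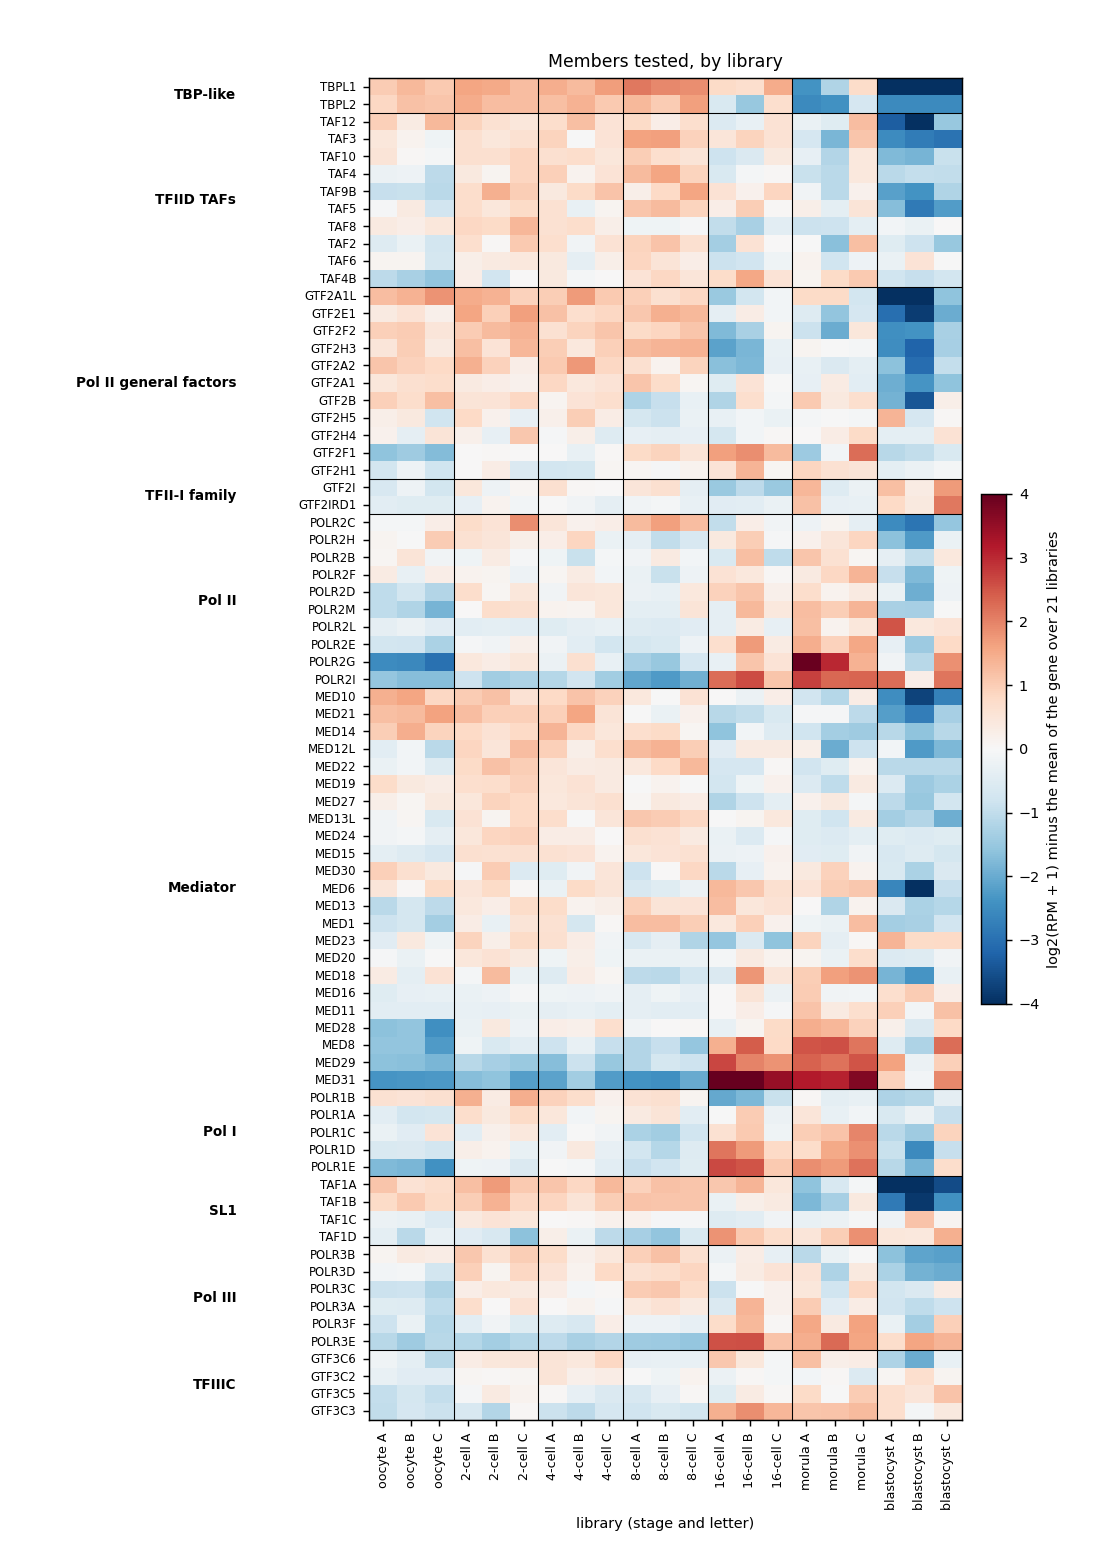
Level of each of the 77 tested members (rows, grouped by complex) in each of the 21 libraries (columns, from oocyte A to blastocyst C), as log2(RPM + 1) minus the mean of the gene over the 21 libraries; red is above and blue below that mean, and the scale ends at -4 and 4. MED31, POLR2I and POLR3E turn from blue to red at the 16-cell stage, and TBPL1, TBPL2, TAF1A and GTF2A1L are blue in blastocysts.

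Most of the machinery changed over these stages, at a rate near that of all genes. In the moderated F test of limma over the 6 consecutive comparisons, 72 of 77 members (93.5%) passed, against 9605 of 10384 genes (92.5%). The 5 members that did not pass were GTF2H4, GTF2H5, GTF3C2, MED30 and POLR2B. The stage with the highest mean was the 8-cell stage for 18 members (23.4%, against 23.2% of all genes), the 2-cell stage for 14, the morula for 14 and the 16-cell stage for 13 (16.9%, against 11.02% of all genes). The blastocyst had the lowest mean for 42 members (54.5%, against 48.9% of all genes) and the oocyte for 21 (27.3%, against 22.5%).

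At the 2-cell stage against oocytes 15 members rose and none fell, beside 14% of all genes higher and 0.482% lower. The rises were spread over 7 of the 10 groups and included POLR2G, MED28, TAF9B, POLR1E and TAF4B. The median member was higher by 0.50 on the log2 scale and the median gene by 0.46. Scaling each library to its gene reads left 10 rises and no fall (all genes 9.15% and 0.607%). Scaling by median ratios, which sets the median gene to 0.00, left 2 rises and 1 fall (all genes 1.95% and 2.89%). Quantile normalization left 2 rises (all genes 1.7% and 1.67%), so that only POLR2G and MED28 rose under all 4 scalings (all genes 1.42% higher and 0.443% lower). There were 6 rises without oocyte C and 7 without 2-cell C.

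No member was called in limma at the 4-cell stage against the 2-cell stage, where 0% of all genes were called. An unadjusted p below 0.05 was reached by 3 members, MED20, MED22 and MED24, all lower at the 4-cell stage, with an adjusted p of 1. At the 8-cell stage against the 4-cell stage no member was called either, beside 0.289% of genes higher and 0.0963% lower. With median ratios none was called either (all genes 0.221% and 0.077%), nor under all 4 scalings (0.202% and 0.077%). There 10 members had an unadjusted p below 0.05 and the smallest adjusted p was 0.33, for GTF2H5. With libraries weighted by their quality, limma called 9 members at that step. The share of all genes called with these weights was not counted, so the 9 cannot be set beside it. MED1, POLR2C, TAF3 and TAF5 were higher and GTF2B, GTF2H5, MED18, POLR1C and POLR2G lower at the 8-cell stage, with log2 fold changes of -1.49 (GTF2B) to 1.18 (MED1).

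At the 16-cell stage members moved in both directions. Against the 8-cell stage 15 members rose and 16 fell, beside 15.4% of all genes higher and 30.7% lower, 46.1% in all. The rises held members of Mediator, Pol II, Pol I, Pol III, SL1 and TFIIIC, with MED31, POLR2I and POLR3E at the top. The falls held the general factors GTF2H3, GTF2F2, GTF2A2 and GTF2E1, 3 TFIID TAFs and TBPL2. They also held MED14, MED22, MED27, POLR1B, POLR2C, POLR3B, POLR3C and GTF2I, so Mediator, Pol I, Pol II and Pol III had members in both directions. The median member was at -0.20 and the median gene at -0.52. All 15 rises and 8 of the 16 falls (GTF2A2, GTF2F2, GTF2H3, GTF2I, POLR1B, POLR2C, TAF4 and TBPL2) were called under all 4 scalings, beside 15.4% and 17% of all genes. Scaling to gene reads gave 18 rises and 10 falls (all genes 17.3% and 24.2%). Median ratios gave 21 and 8 (all genes 19.8% and 17%), and quantile normalization 21 and 9 (all genes 18.9% and 20.8%). In 24 of the 31 called members 16-cell C was the library nearest to the 8-cell mean.

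At the morula stage against the 16-cell stage 5 members rose (GTF2H3, GTF2I, MED23, POLR1B and POLR2G) and 3 fell (TAF1A, TBPL1 and TBPL2), beside 9.44% of all genes higher and 7.59% lower. These 8 calls stood under all 4 scalings (all genes 8.07% higher and 6.93% lower), while median ratios gave 5 rises and 8 falls (all genes 8.46% and 12.6%). The count rests on single libraries. No member was called without morula A, whose label reports a damaged file of reverse reads, 2 without 16-cell A and 5 without morula B, whereas 15 were called without morula C. Without both 16-cell C and morula C, a choice made with these libraries already known to stand apart, 7 rose and 8 fell (all genes 13.1% and 15.7%). For single libraries left out the share of all genes was not counted.

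With the authors' scaling blastocysts had less of most of the machinery than morulae. No member rose and 42 fell, beside 7.74% of all genes higher and 28.1% lower (35.9% in all), and the median member was at -1.21 against -0.50 for the median gene. The falls touched every complex but the TFII-I family and were led by TBPL1, GTF2A1L, TAF1A and MED6. In these bulk samples fewer cells of a type and less RNA per cell cannot be told apart. Scaling changed the split. Scaling to gene reads gave 3 rises and 37 falls (all genes 9.94% and 23.7%). Median ratios gave 9 rises and 23 falls (all genes 17.4% and 14.8%), and quantile normalization 7 and 25 (all genes 16.1% and 15.7%). The 9 members higher under median ratios were GTF2I, GTF2IRD1, GTF3C2, MED16, MED23, POLR2L, TAF1C, TAF6 and TAF8, and 23 falls and no rise were called under all 4 scalings (all genes 14.4% and 7.71%). The blastocyst libraries were themselves uneven, with 40.5% of the implied total reads in genes in blastocyst C, against 24.4% and 24.9% in A and B. Over the whole course, blastocysts against oocytes, 17 members rose and 30 fell, beside 20.8% and 36.6% of all genes (57.4% in all). Median ratios gave 23 rises and 26 falls (all genes 28.5% and 32%). All 17 rises and 24 of the 30 falls were called under all 4 scalings (all genes 20.8% and 29.7%).

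**Figure D2:**
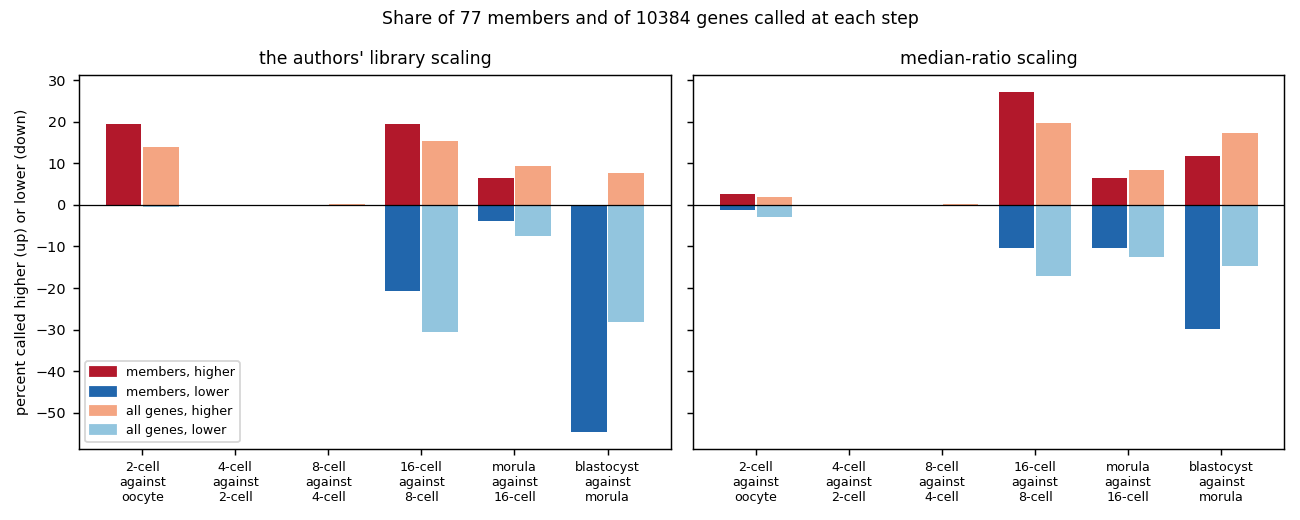
Percent of the 77 members (dark bars) and of the 10384 genes tested (light bars) called higher (above 0) or lower (below 0) at each of the 6 consecutive steps, with the authors' library scaling at left and median-ratio scaling at right. At the blastocyst against the morula stage 42 members were lower and none higher with the authors' scaling, against 23 lower and 9 higher with median ratios.

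Taken as a share of all gene reads, the 84 members held 0.834 ± 0.0210% in oocytes, 0.848 ± 0.0723% at the 2-cell stage, 0.860 ± 0.0491% at the 4-cell stage, 0.796 ± 0.0329% at the 8-cell stage, 0.864 ± 0.109% at the 16-cell stage, then 0.780 ± 0.0768% in the morula and 0.245 ± 0.0753% in the blastocyst. The mean total stayed between 0.780% and 0.864% up to the morula while single complexes changed. Pol I members held 0.0166 ± 0.000746% in oocytes, 0.0183 ± 0.00320% at the 8-cell stage, 0.130 ± 0.0580% at the 16-cell stage and 0.0223 ± 0.0114% in blastocysts. The 2 TBP-like genes held 0.263 ± 0.0121% at the 8-cell stage, 0.163 ± 0.0526% at the 16-cell stage, then 0.0572 ± 0.0595% in the morula and 0.00120 ± 0.000780% in the blastocyst. A share amounts to scaling each library to its gene reads, so it is relative to the reads of all other genes. In a share the long and highly sequenced members weigh most.

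**Figure D3:**
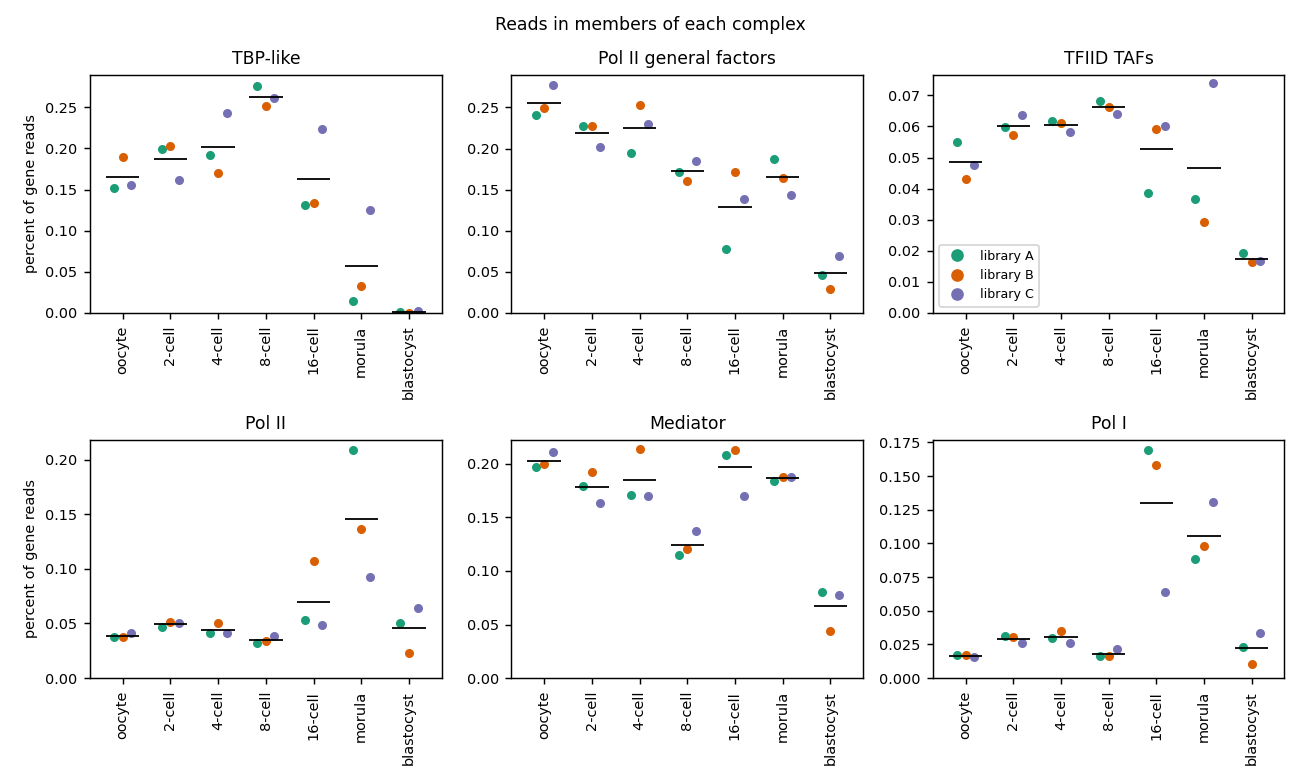
Percent of gene reads that fell in the members of 6 complexes in each library, by stage (points, coloured by library letter; bars, mean of 3 libraries). The TBP-like and Pol II general factor shares are lowest in blastocysts, and the Pol I share is highest in 16-cell A and B, at 0.169% and 0.158%.

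Both TBP-like genes fell in the later stages. TBPL1, a TBP relative that does not bind the TATA box (table coordinates chromosome 9, 59233267 to 59240096, plus strand), held 533, 658 and 552 RPM in oocytes, 801, 763 and 633 RPM at the 2-cell stage, 736, 637 and 853 RPM at the 4-cell stage and 1147, 1001 and 962 RPM at the 8-cell stage. It then held 451, 429 and 739 RPM at the 16-cell stage, 49.5, 114.5 and 443 RPM in morulae and 3.14, 0.948 and 7.83 RPM in blastocysts. Morula C, at 443 RPM, lay within the 16-cell range, while morula A and B lay below it. TBPL1 fell in morulae against 16-cell embryos (log2 fold change -1.93, SE 0.57, adjusted p = 0.0211), a call lost without 16-cell C, morula A or morula B (adjusted p up to 0.193). It fell further in blastocysts against morulae (log2 fold change -5.05, SE 0.57, adjusted p = 5.01e-07), with every blastocyst library below every morula library. In blastocysts against oocytes its fall was the largest of the 77 members on the log2(RPM + 1) scale (log2 fold change -7.13, SE 0.57, adjusted p = 8.21e-10). The rank rests on that scale, which understates falls of lower genes such as TBPL2.

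TBPL2 (chromosome 10, 35314313 to 35346229, plus strand), the factor that replaces TBP in growing mouse oocytes, kept between 9.37 and 16.9 RPM in all 12 libraries up to the 8-cell stage. The 16-cell libraries held 2.77, 1.03 and 8.31 RPM, against 13.2, 10.8 and 16.9 RPM at the 8-cell stage, and all 3 lay below the 8-cell range (log2 fold change -1.80, SE 0.46, adjusted p = 0.00286). Morulae held 0, 0.0833 and 2.63 RPM, where morula C overlapped the 16-cell libraries, and the fall (log2 fold change -1.39, SE 0.46, adjusted p = 0.0372) was lost without 16-cell A, 16-cell C, morula A or morula B (adjusted p up to 0.229). No read of TBPL2 was seen in any blastocyst library, against 9.37, 12.04 and 11.6 RPM in oocytes. Set against the floor of 3 reads per library, 0.0680 RPM, it was at least 162-fold lower in blastocysts than in oocytes (log2 fold change -3.58, SE 0.46, adjusted p = 6.66e-07).

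Among the TFIIA genes, GTF2A1L (chromosome 11, 30491387 to 30538059, plus strand) fell in the blastocyst. It held 300.4, 331 and 435 RPM in oocytes, 216, 214 and 75.1 RPM in morulae and 4.73, 0.158 and 40.2 RPM in blastocysts. All blastocyst libraries lay below all morula and oocyte libraries, although blastocyst C held 40.2 RPM and blastocyst B 0.158 RPM. The fall was called against morulae (log2 fold change -4.56, SE 0.77, adjusted p = 7.90e-05) and against oocytes (log2 fold change -5.76, SE 0.77, adjusted p = 1.29e-06). Its somatic counterpart GTF2A1, which encodes the large TFIIA subunit, held 20.4, 14.9 and 26.1 RPM in blastocysts, against 112, 126.5 and 132 RPM in oocytes, and fell (log2 fold change -2.56, SE 0.37, adjusted p = 3.27e-06). Whether the 2 falls differ was not tested. GTF2A2, the small TFIIA subunit, held 11.04, 9.98 and 29.6 RPM at the 16-cell stage, against 58.6, 41.2 and 69.1 RPM at the 8-cell stage, and all 16-cell libraries were lower (log2 fold change -1.82, SE 0.48, adjusted p = 0.00371).

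**Figure D4:**
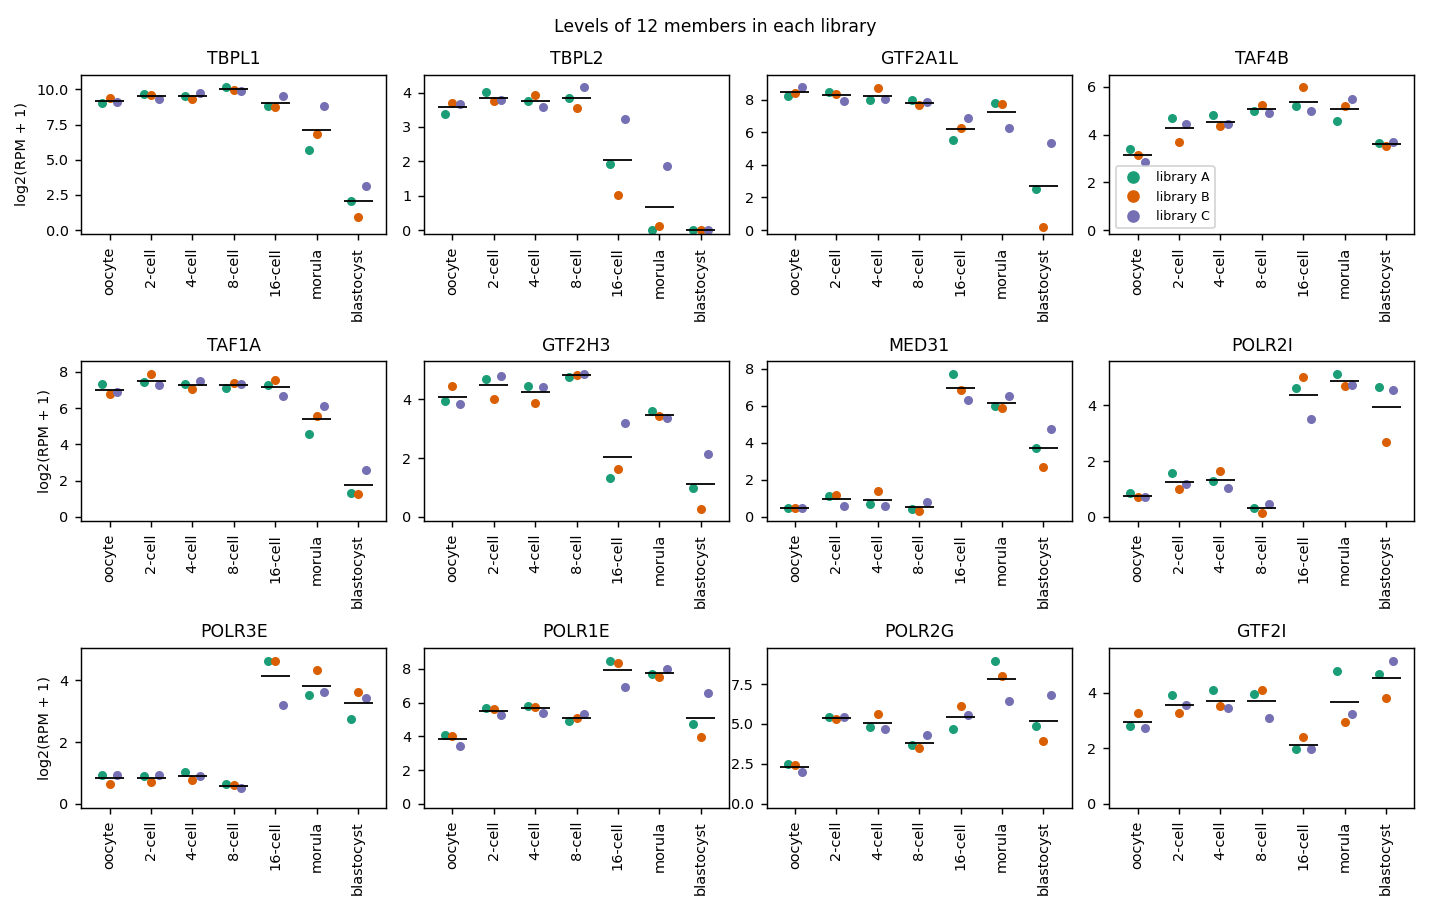
Level of 12 members in each library as log2(RPM + 1), by stage from oocyte to blastocyst (points, coloured by library letter; bars, mean of 3 libraries; each panel has its own axis, from 0). MED31, POLR2I and POLR3E stay below 2 up to the 8-cell stage and exceed 3 in every 16-cell library, and TBPL2 is at 0 in all 3 blastocyst libraries.

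With the authors' scaling none of the 11 Pol II general factors rose and 4 fell at the 16-cell stage. Of all genes 15.4% were called higher and 30.7% lower at that step. In blastocysts 6 fell against morulae (all genes 28.1% lower), and 7 fell against oocytes with none higher (all genes 36.6% and 20.8%). All 7 of these last falls were called under all 4 scalings. Median ratios and quantile normalization called GTF2F1 and GTF2H1 higher at the 16-cell stage. Both called GTF2F1 higher in blastocysts against oocytes, and quantile normalization GTF2H1 as well. Neither called the falls of GTF2A1 and GTF2A2 against morulae. GTF2H3, a core TFIIH subunit, held 1.504, 2.09 and 8.07 RPM in 16-cell libraries, against 25.8, 27.2 and 28.1 RPM in 8-cell libraries. The 3 8-cell libraries were close together and each 16-cell library was lower, 16-cell C least so (log2 fold change -2.76, SE 0.46, adjusted p = 6.86e-05). Morulae held 10.99, 9.87 and 9.39 RPM, a rise on the 16-cell stage (log2 fold change 1.42, SE 0.46, adjusted p = 0.0339) that was lost without 16-cell A, 16-cell B, morula A or morula B (adjusted p up to 0.154). Reads of an unnamed gene on the opposite strand overlap GTF2H3, and whether counting used strand is not given, so the values of the pair cannot be told apart.

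GTF2F2, the small TFIIF subunit, held 11.3, 16.2 and 44.97 RPM at the 16-cell stage, against 70.8, 75.7 and 89.6 RPM at the 8-cell stage, and fell (log2 fold change -1.89, SE 0.51, adjusted p = 0.00435). GTF2F2 overlaps KCTD4, whose reads may be counted with it. Its partner GTF2F1, the large subunit, held 5.72, 5.88 and 5.599 RPM at the 2-cell stage, against 1.16, 1.47 and 0.9799 RPM in oocytes. Every 2-cell library was higher (log2 fold change 1.62, SE 0.54, adjusted p = 0.0402), but the call was lost without 2-cell A, 2-cell B, 2-cell C, oocyte A, oocyte B or oocyte C (adjusted p up to 0.132) and under the 3 other scalings. At the 16-cell stage GTF2F1 held 19.5, 23.1 and 15 RPM, against 10.1, 11.3 and 8.37 RPM at the 8-cell stage, which was not called (log2 difference 0.87, adjusted p = 0.172) but was called higher with median ratios and quantile normalization. Morula libraries of GTF2F1 ranged from 1.39 to 30.4 RPM.

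GTF2E1, the large TFIIE subunit, fell at the 16-cell stage, where it held 19.9 ± 5.02 RPM, against 51.1 ± 6.12 RPM at the 8-cell stage (log2 fold change -1.34, SE 0.42, adjusted p = 0.01003). That fall was also called after scaling to gene reads, where the log2 fold change was -1.09, but was -0.79 with median ratios and -0.91 after quantile normalization. Blastocysts held 1.64, 0.544 and 4.43 RPM of it, against 13.9, 6.25 and 12.5 RPM in morulae (log2 fold change -2.01, SE 0.42, adjusted p = 5.46e-04). GTF2B, the single subunit of TFIIB, held 28.7, 9.25 and 129 RPM in blastocysts, against 227, 143 and 176 RPM in morulae. Blastocyst C lay just under the lowest morula library, and A and B lay far below (log2 fold change -2.40, SE 0.61, adjusted p = 0.00312). Within TFIIH, GTF2H1 held between 22.3 and 102.7 RPM in every library, and GTF2H4 and GTF2H5 stayed at or below 5.10 RPM. None of these 3 TFIIH genes was called in any comparison with the authors' scaling.

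TAF4B and TAF4 are alternative subunits of TFIID, and whether their courses differ was not tested. TAF4B (chromosome 24, 30823814 to 30929265, minus strand) held 7.92 ± 1.67 RPM in oocytes, 19.3 ± 6.71 RPM at the 2-cell stage, 22.6 ± 4.21 RPM at the 4-cell stage, 32.6 ± 4.27 RPM at the 8-cell stage, 43.03 ± 17.5 RPM at the 16-cell stage, then 34.2 ± 10.7 RPM in the morula and 11.3 ± 0.792 RPM in the blastocyst. Its 2-cell libraries held 25.1, 11.9 and 20.8 RPM, against 9.59, 7.91 and 6.25 RPM in oocytes, and did not overlap them (log2 fold change 1.14, SE 0.37, adjusted p = 0.03603). That call was lost without 2-cell A, 2-cell C, oocyte A, oocyte B or oocyte C (adjusted p up to 0.1501) and under the 3 other scalings. Blastocysts held 11.4, 10.5 and 12.1 RPM, against 22.7, 36.02 and 43.9 RPM in morulae, and fell (log2 fold change -1.47, SE 0.37, adjusted p = 0.00329), which was called after scaling to gene reads but not with median ratios (-0.54) or quantile normalization (-0.54). TAF4, the widely expressed form, held 0.723, 1.48 and 1.75 RPM at the 16-cell stage, against 5.31, 6.97 and 3.91 RPM at the 8-cell stage, and fell with no overlap (log2 fold change -1.47, SE 0.36, adjusted p = 0.00201).

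With the authors' scaling 2 of the 10 TFIID TAFs tested rose at the 2-cell stage (all genes 14% higher). None rose and 3 fell at the 16-cell stage (all genes 15.4% higher and 30.7% lower). None was called at the morula stage, and 6 fell at the blastocyst stage against morulae (all genes 28.1% lower). TAF9B, a histone-fold paralogue of TAF9 that TFIID and SAGA share, held 7.84, 13.5 and 9.92 RPM at the 2-cell stage, against 1.92, 1.98 and 1.59 RPM in oocytes. The 2-cell libraries were all higher (log2 fold change 1.99, SE 0.40, adjusted p = 0.00235), also when scaled to gene reads (1.85), while the rise was 1.35 with median ratios and 1.33 after quantile normalization and was not called. TAF9B lies across ATP7A on the opposite strand, so its reads cannot be assigned with certainty. TAF12, another histone-fold subunit of TFIID and SAGA, held 64.3, 40.9 and 82.5 RPM in oocytes, 27.3, 23.03 and 78.5 RPM in morulae and 2.45, 0.983 and 10.7 RPM in blastocysts. Its blastocyst libraries lay below all others, and the fall was called against morulae (log2 fold change -3.13, SE 0.53, adjusted p = 7.88e-05) and oocytes (log2 fold change -3.83, SE 0.53, adjusted p = 1.93e-06). TAF5, the WD40 scaffold of TFIID, held 2.33 ± 1.27 RPM in blastocysts, against 16.1 ± 5.07 RPM in morulae (log2 fold change -2.38, SE 0.40, adjusted p = 7.21e-05). TAF10, in both complexes as well, held 17.96 ± 7.66 RPM in blastocysts, against 57 ± 13.2 RPM in oocytes (log2 fold change -1.66, SE 0.42, adjusted p = 0.00138), and after quantile normalization the log2 fold change of -0.79 was not called. The TAF10 fall at the 16-cell stage was called only with the authors' scaling. It was lost without 16-cell A, 16-cell B, 8-cell A or 8-cell B (adjusted p up to 0.1445). TAF6 held 0.805 ± 0.495 RPM at the 16-cell stage, against 2.97 ± 0.864 RPM at the 8-cell stage (log2 fold change -1.15, SE 0.32, adjusted p = 0.0052), a fall called only with the authors' scaling and lost without 8-cell A (log2 fold change -0.98). TAF6 overlaps MCM7 on its own strand and AP4M1 on the other, and these reads cannot be told apart.

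Of the 10 Pol II members tested 3 rose at the 2-cell stage, and 4 rose and 1 fell at the 16-cell stage. At the morula stage 1 rose, and 7 fell in blastocysts against morulae. Of all genes 14% were called higher at the 2-cell stage, and 15.4% higher and 30.7% lower at the 16-cell stage. At the morula stage 9.44% of all genes were higher, and in blastocysts against morulae 28.1% were lower. POLR2G (chromosome 29, 41410013 to 41412856, plus strand) encodes a subunit of the stalk beside the RNA exit channel. It held 41.9, 38.7 and 42.6 RPM in 2-cell libraries, against 4.68, 4.43 and 3.07 RPM in oocytes, with no overlap. On the log2(RPM + 1) scale it had the largest rise of the members at this step (log2 fold change 3.07, SE 0.61, adjusted p = 0.00204). At the 8-cell stage it held 11.8, 10.2 and 19.1 RPM, at the 16-cell stage 24.95, 68.7 and 45.6 RPM, in morulae 497.5, 261 and 84.2 RPM and in blastocysts 28.01, 13.99 and 112 RPM. Morula libraries differed from each other, morula A holding the most of all 21 libraries and morula C the least of the 3. The rise at the 16-cell stage against the 8-cell stage (log2 fold change 1.62, SE 0.61, adjusted p = 0.0288) was lost without 16-cell B, 16-cell C, 8-cell A or 8-cell B (adjusted p up to 0.128). In morulae against 16-cell embryos POLR2G rose (log2 fold change 2.35, SE 0.61, adjusted p = 0.00985), and that call was lost without 16-cell A or morula A (adjusted p up to 0.0874). Its fall in blastocysts against morulae (log2 fold change -2.61, SE 0.61, adjusted p = 0.00168) held although blastocyst C, at 112 RPM, overlapped morula C.

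POLR2D, the other stalk subunit, held 7.53 ± 1.77 RPM at the 2-cell stage, against 2.24 ± 0.507 RPM in oocytes (log2 fold change 1.39, SE 0.41, adjusted p = 0.0224), a rise called only with the authors' scaling and lost without 2-cell A, 2-cell C, oocyte A or oocyte C (adjusted p up to 0.0989). POLR2I (chromosome 18, 47615149 to 47616313, minus strand), a small subunit at the jaw of the enzyme that aids proofreading, held 23.9, 31.2 and 10.5 RPM in 16-cell libraries, against 0.2502, 0.104 and 0.393 RPM in 8-cell libraries. No library of the earlier stages passed 2.13 RPM, and every 16-cell library was higher, 16-cell C least so (log2 fold change 4.07, SE 0.43, adjusted p = 2.37e-07). Blastocysts still held 23.99, 5.39 and 22.5 RPM, against 0.815, 0.6395 and 0.629 RPM in oocytes (log2 fold change 3.20, SE 0.43, adjusted p = 1.34e-06). POLR2C, which pairs with another core subunit early in assembly, fell at the 16-cell stage, where it held 4.85, 12.9 and 9.61 RPM, against 26.95, 35.1 and 26.2 RPM at the 8-cell stage (log2 fold change -1.66, SE 0.42, adjusted p = 0.00235). POLR2B, the second largest subunit, was called in no comparison and held between 19.3 and 93.3 RPM in every library, and it overlaps an unnamed gene on its own strand whose reads may be counted with it. POLR2M, which associates with Pol II and restrains it, held 8.85 ± 2.31 RPM at the 2-cell stage, against 1.83 ± 0.802 RPM in oocytes (log2 fold change 1.81, SE 0.43, adjusted p = 0.00647). That rise was also called after scaling to gene reads (1.67) but not with median ratios (1.20) or quantile normalization (1.16), and was lost without oocyte C (adjusted p = 0.0512).

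Of the 5 subunits that Pol I, II and III share, POLR2K was not tested. POLR2E and POLR2H rose at the 16-cell stage under all 4 scalings. POLR2E held 5.499 ± 3.39 RPM there, against 1.27 ± 0.431 RPM at the 8-cell stage (log2 fold change 1.41, SE 0.42, adjusted p = 0.00762), lost without 16-cell B (adjusted p = 0.0624). POLR2H held 38.7 ± 14.5 RPM at the 16-cell stage, against 17.1 ± 3.93 RPM at the 8-cell stage, near the threshold (log2 fold change 1.09, adjusted p = 0.0479), and leaving out any one of 14 libraries ended that call. POLR2F was not called there with the authors' scaling and was called higher with each of the other 3. POLR2L held 7.29, 0.948 and 1.11 RPM in blastocysts, against 0.133, 0.235 and 0.0555 RPM in oocytes (log2 fold change 1.51, SE 0.37, adjusted p = 0.00107), a call lost without blastocyst A (log2 fold change 0.83).

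Of the 23 Mediator members tested 5 rose and 3 fell at the 16-cell stage, beside 15.4% of all genes higher and 30.7% lower. The risers were MED6, MED8 and MED18 of the head, MED31 of the middle and MED29, a metazoan core subunit. MED14, the scaffold that joins the modules, was among the fallers, with MED22 and MED27. The MED6 rise (log2 fold change 1.45, SE 0.55, adjusted p = 0.0289) was lost without 16-cell A, 16-cell B, 8-cell A or 8-cell B (adjusted p up to 0.0959), and the MED18 rise (log2 fold change 1.502, SE 0.55, adjusted p = 0.0239) without 16-cell B, 8-cell A or 8-cell B (adjusted p up to 0.183). The MED27 fall (log2 fold change -1.07) was called only with the authors' scaling and was lost without 16-cell A (log2 fold change -0.88), and the MED22 fall (-1.28) was not called with median ratios (-0.95). No tail or kinase-module member was called at that step. MED31 (chromosome 19, 25043955 to 25050045, plus strand), a small middle-module subunit known from mouse to be needed for cell proliferation in the embryo, held 210, 114.5 and 77.6 RPM in 16-cell libraries, against 0.3395, 0.271 and 0.73 RPM in 8-cell libraries. All 12 libraries up to the 8-cell stage held 0.271 to 1.67 RPM. The rise was the largest of any member in any comparison (log2 fold change 6.44, SE 0.44, adjusted p = 6.24e-10). Morulae held 62.9, 57.9 and 90.2 RPM and blastocysts 12.3, 5.48 and 25.8 RPM, so MED31 fell in blastocysts against morulae (log2 fold change -2.41, SE 0.44, adjusted p = 1.59e-04), while blastocysts stayed above oocytes (log2 fold change 3.24, SE 0.44, adjusted p = 1.23e-06).

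MED29 (chromosome 18, 49964167 to 49972356, plus strand) held 25, 15.2 and 13.3 RPM at the 16-cell stage, against 0.815, 1.53 and 1.28 RPM at the 8-cell stage, with no overlap (log2 fold change 3.06, SE 0.38, adjusted p = 1.73e-06). An unnamed gene on the opposite strand overlaps it, and strand use in counting is not given. MED8, a head subunit, held 35.2, 71.5 and 22.8 RPM at the 16-cell stage, against 5.004, 6.14 and 3.59 RPM at the 8-cell stage (log2 fold change 2.77, SE 0.58, adjusted p = 6.18e-04). In blastocysts MED8 was scattered, with 8.48, 4.74 and 62.2 RPM, against 3.51, 3.52 and 1.83 RPM in oocytes, and the call (log2 fold change 1.97, SE 0.58, adjusted p = 0.00543) was lost without blastocyst C (adjusted p = 0.0668). MED6, another head subunit, held 14.1, 3.69 and 47.5 RPM in blastocysts, against 133, 181 and 197 RPM in morulae, and fell (log2 fold change -3.49, SE 0.55, adjusted p = 3.10e-05). MED18, also of the head, held 0.663, 0.193 and 3.97 RPM in blastocysts, against 11.04, 18.03 and 20.2 RPM in morulae, and fell (log2 fold change -2.98, SE 0.55, adjusted p = 1.67e-04). MED6 overlaps an unnamed gene on its own strand.

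MED28, a metazoan core subunit (chromosome 6, 37696130 to 37702513, plus strand), rose at the first cleavage. It held 16.1, 25.8 and 16.9 RPM at the 2-cell stage, against 5.63, 5.82 and 2.72 RPM in oocytes, with no overlap (log2 fold change 1.87, SE 0.40, adjusted p = 0.00319). Blastocysts held 22.4, 12.9 and 34.9 RPM, still above oocytes (log2 fold change 2.04, SE 0.40, adjusted p = 1.13e-04). MED10 and MED21, a pair of middle-module subunits, were lower in blastocysts than in oocytes. MED10 held 2.15, 0.347 and 1.72 RPM in blastocysts, against 46.2, 51.1 and 30.1 RPM in oocytes (log2 fold change -4.23, SE 0.41, adjusted p = 1.13e-08), and MED21 held 26.8, 18.1 and 50.4 RPM in blastocysts, against 295, 306 and 390.1 RPM in oocytes (log2 fold change -3.45, SE 0.41, adjusted p = 1.95e-07). MED14 held 13.6, 40.4 and 30.5 RPM at the 16-cell stage, against 70.1, 74.7 and 46.3 RPM at the 8-cell stage. Its fall (log2 fold change -1.25, SE 0.40, adjusted p = 0.0116) was called only with the authors' scaling and was lost without 16-cell A or 8-cell B (adjusted p up to 0.0975). MED14 also held 17.7 ± 3.47 RPM in blastocysts, against 97 ± 20.9 RPM in oocytes, a fall called under all 4 scalings (log2 fold change -2.39, SE 0.40, adjusted p = 1.76e-05).

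In the kinase module MED13 held 27.7, 24.7 and 35.3 RPM at the 2-cell stage, against 9.33, 12.1 and 9.41 RPM in oocytes (log2 fold change 1.42, SE 0.39, adjusted p = 0.0138). That rise was also called after scaling to gene reads (1.26) but not with median ratios (0.67) or quantile normalization (0.81), and was lost without 2-cell C or oocyte C (adjusted p up to 0.0721). Its paralogue MED13L held 3.86 ± 1.29 RPM in blastocysts, against 10.6 ± 2.698 RPM in oocytes (log2 fold change -1.26, SE 0.37, adjusted p = 0.00514). After scaling to gene reads its log2 fold change was -1.001, with median ratios -0.71 and after quantile normalization -0.65, and the last 2 were not called. MED12L, a paralogue of MED12 whose gene spans 345.5 kb with 5 annotated genes on its other strand, was called in no comparison (9.79 ± 3.49 RPM in oocytes, 34.1 ± 5.19 RPM at the 8-cell stage and 6.15 ± 5.97 RPM in blastocysts). MED1, which contacts nuclear receptors, held 6.65 ± 1.86 RPM in blastocysts, against 21.6 ± 14.3 RPM in morulae (log2 fold change -1.41, SE 0.43, adjusted p = 0.0112). The call was not made with median ratios (-0.52) or quantile normalization (-0.64) and was lost without morula C (adjusted p = 0.0808). In the tail, MED23 held 8.76, 3.08 and 4.51 RPM in morulae, against 0.821, 2.51 and 0.721 RPM at the 16-cell stage, with no overlap (log2 fold change 1.44, SE 0.39, adjusted p = 0.0125), and the call was lost without 16-cell A, 16-cell C or morula A (adjusted p up to 0.0988). MED23 overlaps ARG1 on the opposite strand. MED11 of the head was at 0 in all 3 oocyte libraries and held 1.59, 0.246 and 2.07 RPM in blastocysts. The blastocyst mean of MED11, 1.303 RPM, was 22.2-fold the floor of 3 reads per oocyte library (0.0588 RPM). The MED11 call (log2 fold change 1.10, SE 0.24, adjusted p = 4.38e-04) was lost without blastocyst A or blastocyst C (log2 fold change 0.97 and 0.85).

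**Figure D5:**
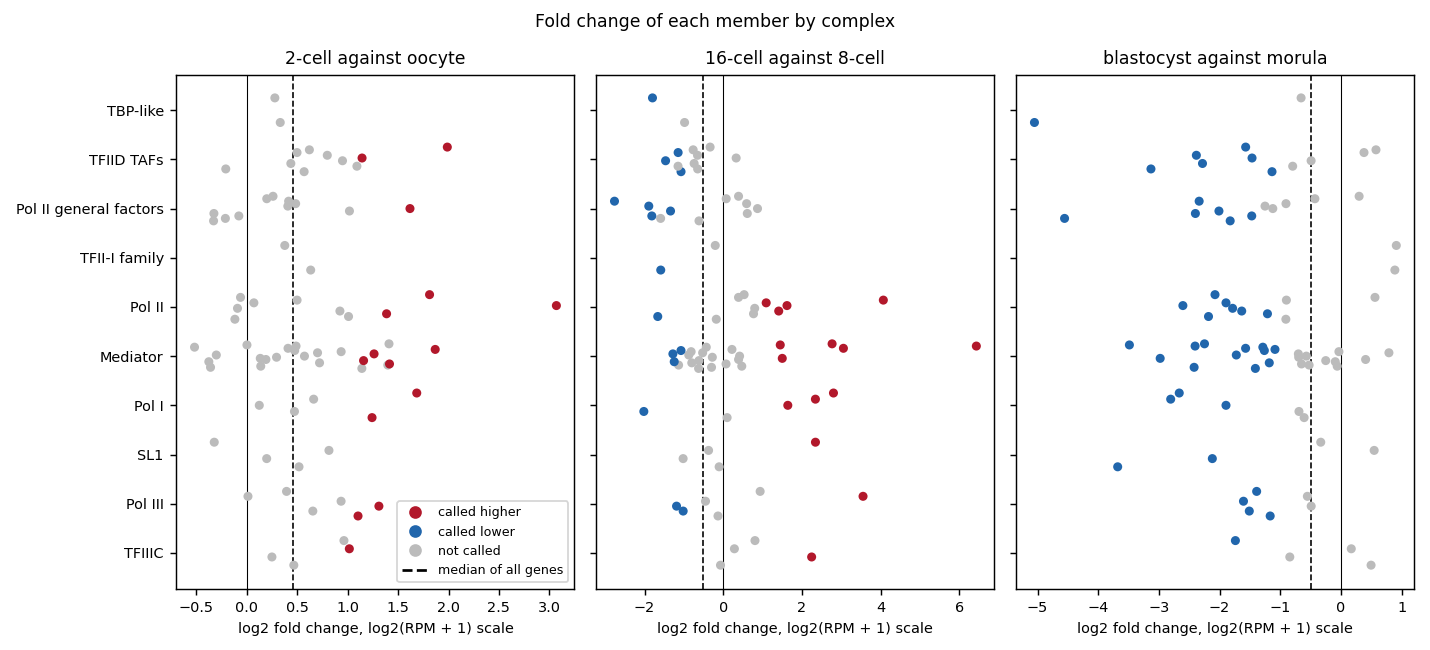
Fold change of each tested member on the log2(RPM + 1) scale, by complex (rows), for the 2-cell stage against oocytes, the 16-cell stage against the 8-cell stage and blastocysts against morulae; red members were called higher, blue lower and grey were not called, and the dashed line is the median of all 10384 genes. With the authors' scaling, shown here, rises at the 16-cell stage lie in Pol I, Pol II, Mediator, Pol III, SL1 and TFIIIC, with MED31 at 6.44. None of them lies among the TBP-like, TFIID or Pol II general factors.

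Pol I members rose at the 16-cell stage as 3 of 5, with POLR1B alone falling, beside 15.4% of all genes higher and 30.7% lower. POLR1E (chromosome 8, 61267297 to 61283694, plus strand), a subunit of the TFIIF-like pair of Pol I, held 15.8, 15.4 and 9.71 RPM in oocytes, 50, 48.6 and 37.6 RPM at the 2-cell stage, 55.6, 53.3 and 41.5 RPM at the 4-cell stage and 29.3, 32.9 and 39.8 RPM at the 8-cell stage. It held 358.5, 330 and 119 RPM at the 16-cell stage, 208, 186.5 and 257 RPM in morulae and 25.8, 14.8 and 92.7 RPM in blastocysts. Every 16-cell library exceeded every earlier one, 16-cell C by the least. POLR1E rose at the 16-cell stage against the 8-cell stage (log2 fold change 2.80, SE 0.50, adjusted p = 1.37e-04) and fell in blastocysts against morulae (log2 fold change -2.67, SE 0.50, adjusted p = 2.21e-04). Its first rise, at the 2-cell stage against oocytes (log2 fold change 1.69, SE 0.50, adjusted p = 0.0225), was also called after scaling to gene reads (1.53) but not with median ratios (0.93) or quantile normalization (1.16), and was lost without 2-cell A, 2-cell B, 2-cell C or oocyte C (adjusted p up to 0.115).

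POLR1D, which Pol I and Pol III share, held 213, 158 and 84.4 RPM at the 16-cell stage, against 28.2, 21.2 and 33.1 RPM at the 8-cell stage (log2 fold change 2.35, SE 0.45, adjusted p = 2.54e-04). Blastocysts held 25.3, 7.46 and 24.9 RPM, against 80.1, 138 and 173 RPM in morulae, with no overlap (log2 fold change -2.81, SE 0.45, adjusted p = 3.61e-05). POLR1C, the other shared subunit of this assembly pair, held 11.4 ± 4.93 RPM at the 16-cell stage, against 2.81 ± 0.885 RPM at the 8-cell stage (log2 fold change 1.64, SE 0.49, adjusted p = 0.00797). POLR1B, the second largest subunit of Pol I, held 0.371, 0.629 and 2.05 RPM at the 16-cell stage, against 7.36, 7.803 and 5.15 RPM at the 8-cell stage, and fell under all 4 scalings (log2 fold change -2.02, SE 0.38, adjusted p = 2.20e-04). It rose again in morulae, which held 4.82, 3.33 and 3.597 RPM (log2 fold change 1.36, SE 0.38, adjusted p = 0.0146), a call lost without 16-cell A or morula A (adjusted p up to 0.0741). POLR1A, the largest subunit, stayed at or below 3.27 RPM in every library and rose at the 2-cell stage (log2 fold change 1.24, SE 0.32, adjusted p = 0.00974), also after scaling to gene reads (1.13) but not with median ratios (0.83) or quantile normalization (0.67). POLR1A overlaps PTCD3 on the opposite strand.

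The SL1 genes, which place Pol I on the ribosomal RNA promoter, went in opposite directions. TAF1A (chromosome 16, 24552659 to 24582032, minus strand) kept 99.4 to 235 RPM in all 15 libraries up to the 16-cell stage. Morulae held 22.9, 45.6 and 68.9 RPM, against 153, 188 and 99.4 RPM at the 16-cell stage, all lower (log2 fold change -1.74, SE 0.43, adjusted p = 0.00655), a call lost without morula A (adjusted p = 0.0676). Blastocysts held 1.48, 1.44 and 5.11 RPM, against 22.9, 45.6 and 68.9 RPM in morulae, again all lower (log2 fold change -3.68, SE 0.43, adjusted p = 7.01e-07). TAF1B held 14.3, 6.44 and 19.3 RPM in blastocysts, against 182, 223 and 184 RPM in oocytes (log2 fold change -3.89, SE 0.46, adjusted p = 2.10e-07), and overlaps an unnamed gene on the opposite strand. TAF1D, by contrast, held 79.5, 47.3 and 36.97 RPM at the 16-cell stage, against 8.38, 6.76 and 14.4 RPM at the 8-cell stage, and rose (log2 fold change 2.35, SE 0.47, adjusted p = 3.90e-04). Blastocysts held 30.9, 30.3 and 61.4 RPM of it, above oocytes with 16.8, 10.2 and 17.8 RPM (log2 fold change 1.35, SE 0.47, adjusted p = 0.0151), a call lost without blastocyst C or oocyte B (adjusted p up to 0.0809). TAF1C, which overlaps ADAD2 and DNAAF1 on the opposite strand, stayed at or below 2.60 RPM and was not called with the authors' scaling.

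With the authors' scaling Pol III had 1 riser at the 16-cell stage among 6 tested and 2 fallers, POLR3B and POLR3C. Of all genes 15.4% were higher and 30.7% lower. The POLR3C fall was called only with that scaling and was lost without 16-cell A (adjusted p = 0.0889). POLR3F was not called there with the authors' scaling and was called higher with each of the other 3. POLR3E (chromosome 25, 19908507 to 19943996, plus strand), one of the TFIIF-like subunits of Pol III, held 23.4, 23.7 and 8.096 RPM at the 16-cell stage, against 0.554, 0.5202 and 0.431 RPM at the 8-cell stage. All 12 libraries up to the 8-cell stage held 0.431 to 1.03 RPM and every later library held more (log2 fold change 3.56, SE 0.35, adjusted p = 9.34e-08). Its partner POLR3D held 4.36 ± 1.13 RPM at the 16-cell stage, against 6.23 ± 0.653 RPM at the 8-cell stage, with no call there, and 0.382 ± 0.398 RPM in blastocysts, against 3.68 ± 2.45 RPM in morulae (log2 fold change -1.61, SE 0.40, adjusted p = 0.00267). POLR3B, the second largest subunit, held 1.99, 1.16 and 1.08 RPM in blastocysts, against 8.91, 10.8 and 10.3 RPM in oocytes, and fell under all 4 scalings (log2 fold change -2.21, SE 0.34, adjusted p = 8.30e-06). Its fall at the 16-cell stage (log2 fold change -1.02, SE 0.34, adjusted p = 0.0164) was called only with the authors' scaling and was lost without 16-cell A, 16-cell C or 8-cell B (adjusted p up to 0.0722). POLR3A, the largest subunit, held 2.43 ± 0.797 RPM at the 2-cell stage, against 0.588 ± 0.301 RPM in oocytes, with an adjusted p of 0.0454, and that rise was called with the authors' scaling only. Leaving out any one of 13 libraries ended it, with an adjusted p up to 0.19.

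TFIIIC, which binds the internal promoter of transfer RNA genes, had 4 of 6 members tested. GTF3C3 held 20.1, 27.5 and 18.9 RPM at the 16-cell stage, against 3.56, 4.18 and 3.73 RPM at the 8-cell stage, with no overlap (log2 fold change 2.25, SE 0.34, adjusted p = 1.89e-05). GTF3C5 held 3.23, 2.703 and 4.77 RPM in blastocysts, against 0.3602, 0.6395 and 0.351 RPM in oocytes, and rose (log2 fold change 1.64, SE 0.31, adjusted p = 6.94e-05). GTF3C6 held 2.27 ± 1.93 RPM in blastocysts, against 9.23 ± 4.15 RPM in morulae (log2 fold change -1.74, SE 0.41, adjusted p = 0.00173). GTF3C1, the largest subunit, did not reach the filter and ranged from 0.0284 to 1.31 RPM.

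The TFII-I family was the one group of members with no fall in blastocysts against morulae. GTF2I (chromosome 25, 32588308 to 32649593, minus strand), a signal-responsive factor that binds initiator elements, held 2.97, 4.33 and 2.98 RPM at the 16-cell stage, against 14.4, 16.2 and 7.599 RPM at the 8-cell stage, and fell (log2 fold change -1.59, SE 0.45, adjusted p = 0.00564). Morulae held 26.7, 6.71 and 8.495 RPM, all above the 16-cell libraries (log2 fold change 1.53, SE 0.45, adjusted p = 0.0203), but morula A held most and the call was lost without 16-cell A, 16-cell C or morula A (adjusted p up to 0.177). Blastocysts held 24.6, 13 and 34.7 RPM, against 6.07, 8.55 and 5.68 RPM in oocytes, with no overlap (log2 fold change 1.61, SE 0.45, adjusted p = 0.00338). GTF2IRD1, its paralogue, held 1.46, 0.8599 and 5.08 RPM in blastocysts, against 0.0569, 0 and 0 RPM in oocytes (log2 fold change 1.57, SE 0.35, adjusted p = 4.06e-04). Neither was called in blastocysts against morulae with the authors' scaling, and both were called higher with each of the other 3.

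Genes that work with this machinery but carry other names were also called in both directions at the 16-cell stage. Of 72 such genes tested in 9 lists 15 rose and 24 fell, beside 15.4% of all genes higher and 30.7% lower. Under all 4 scalings 15 rose and 12 fell, beside 15.4% and 17% of all genes. Among 4 TFIIH partners tested of 5 listed none rose and 3 fell, 2 of them under all 4 scalings, among them CDK7, the TFIIH kinase (42.5 ± 34.1 RPM at the 16-cell stage, against 229 ± 12.1 RPM at the 8-cell stage, log2 fold change -2.69, SE 0.54, adjusted p = 4.27e-04). Of the 2 Mediator kinase partners tested 1 fell, CDK8, with 65.3 ± 53.5 RPM, against 261 ± 4.92 RPM at the 8-cell stage (log2 fold change -2.27, SE 0.40, adjusted p = 1.32e-04). Of the 3 TBP regulators 2 fell and none rose, 1 of the falls under all 4 scalings. BTAF1, which strips TBP from DNA, held 21.2 ± 13.1 RPM, against 104 ± 14.4 RPM at the 8-cell stage (log2 fold change -2.48, SE 0.47, adjusted p = 2.55e-04). Of 11 SAGA partners tested 1 rose and 4 fell, 2 of the falls under all 4 scalings, including SUPT20H (log2 fold change -2.24, SE 0.45, adjusted p = 4.20e-04). Among Pol III factors 3 of 5 tested rose and none fell. SNAPC5, of the complex that recognises small nuclear RNA promoters, held 7.25 ± 1.63 RPM, against 0.103 ± 0.0664 RPM at the 8-cell stage (log2 fold change 2.89, SE 0.26, adjusted p = 1.81e-08).

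Pol II pausing and elongation factors were mixed, with 5 of 24 tested higher and 7 lower at the 16-cell stage, 2 of the falls under all 4 scalings. ELL2, a super elongation complex subunit, held 262 ± 102.5 RPM, against 13.01 ± 4.22 RPM at the 8-cell stage (log2 fold change 4.21, SE 0.49, adjusted p = 9.35e-07). Within the PAF complex CDC73 rose (82.3 ± 43.8 RPM, against 11.9 ± 2.57 RPM at the 8-cell stage, log2 fold change 2.51, SE 0.42, adjusted p = 6.72e-05), while LEO1 fell (229 ± 179 RPM, against 1152 ± 178 RPM at the 8-cell stage, log2 fold change -2.58, SE 0.63, adjusted p = 0.00205). Of the 10 polymerase assembly and import genes 2 rose and 3 fell. URI1, a chaperone of the prefoldin type, rose (log2 fold change 3.05, SE 0.37, adjusted p = 1.55e-06), and the Pol II assembly factors RPAP2 (log2 fold change -2.38, SE 0.45, adjusted p = 2.32e-04) and RPAP3 (log2 fold change -2.04, SE 0.42, adjusted p = 4.64e-04) fell. Of the 7 mitochondrial transcription genes 4 rose under all 4 scalings, and 2 fell with the authors' scaling but not under all 4. TFAM, which packages mitochondrial DNA, held 11.9 ± 3.54 RPM, against 0.234 ± 0.0731 RPM at the 8-cell stage (log2 fold change 3.35, SE 0.32, adjusted p = 4.94e-08), and TFB2M, the initiation factor, rose as well (log2 fold change 3.59, SE 0.47, adjusted p = 3.52e-06), as did MTERF1 and TEFM with log2 fold changes of 2.30 and 2.32. TFB1M fell (log2 fold change -2.27, SE 0.83, adjusted p = 0.0259), and 1 of the other 3 scalings did not call it. Of the 6 Pol I partners none rose and 2 fell at this step. In blastocysts against morulae 1 of the 72 partner genes rose and 32 fell, beside 7.74% of all genes higher and 28.1% lower, and 11 of these falls were elongation factors. Under all 4 scalings 1 rose and 13 fell, beside 7.71% and 14.4% of all genes, and 3 of these 13 falls were elongation factors.

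Of the tested members 11 were called in none of the 7 comparisons with the authors' scaling, namely GTF2H1, GTF2H4, GTF2H5, GTF3C2, MED12L, MED20, MED24, POLR2B, TAF1C, TAF2 and TAF8. With other scalings some were called, GTF2H1 higher at the 16-cell stage and GTF3C2, TAF1C and TAF8 higher in blastocysts against morulae, each with median ratios and quantile normalization. TAF8, a TFIID subunit that joins TAF10, held 5.68 ± 2.15 RPM at the 16-cell stage and 9.98 ± 0.486 RPM at the 8-cell stage. TAF2, which contacts promoter DNA, ranged from 0.333 to 8.78 RPM over the morula libraries alone. GTF3C2, a TFIIIC subunit, held 5.12 to 13.3 RPM in all 21 libraries.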

How the data were processed

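The deposited table holds the authors' RPKM values for 19040 genes in 21 libraries. Per the submitters' processing notes, FastQC, STAR 2.5.3a and Partek were used, with build, counting step and strand use not given in the sources used here. Positions are as in the deposited table. An offset of 0.01 was subtracted from each deposited RPKM value and the result multiplied by the gene span in kb, which gave RPM; 94.6% to 96.4% of low values then lay within 0.05 of a whole read. Library totals are those implied by the value of 1 read.

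Genes with at least 1 RPM in 3 libraries were tested on log2(RPM + 1) with limma 3.58.1 in R 4.3.3 (trend and robust variance, 1 mean per stage, all 21 libraries, two-sided), and p-values were adjusted by Benjamini-Hochberg over all 10384 genes. The fit was tested on simulated data. Summaries used pandas 2.3.3 and numpy 2.4.6 under Python 3.11.15, and plots matplotlib 3.10.9. Named members are, in each direction of a comparison, up to 8 called members whose libraries do not overlap and whose mean reaches 10 RPM in the higher stage, with a list of members tracked whatever their values; others were named after their values were seen. Partner genes are named at an absolute log2 fold change of at least 2. Members and lists were chosen with earlier results of these data known. Alternatives were other scalings, pseudocounts and filters, RPKM as deposited, array weights, a block on the library letter, each library left out, and 16-cell C and morula C left out together. One member is counted but not reported by name here.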

Additional observations from a re-analysis of the deposited data

How the results depend on the processing

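Among the 143 calls of a member in a comparison, 61 stood in all 31 settings on RPM, and no call reversed in any setting. The calls that were lost numbered 50 with a pseudocount of 5, 44 with median-ratio scaling, 43 with quantile normalization and 31 with array weights. Of members called at the 2-cell stage against oocytes there were 2 with RPKM as deposited, 7 with a pseudocount of 5, 3 with median ratios and 2 with quantile normalization, and 6 to 16 with 1 library left out. At the 8-cell stage against the 4-cell stage array weights gave 9. RPKM gave 15 at the 16-cell stage against the 8-cell stage, 3 in morulae against 16-cell embryos, 20 in blastocysts against morulae and 21 in blastocysts against oocytes, where fewer members were tested, 41 in all. In morulae against 16-cell embryos a pseudocount of 5 gave 4, median ratios 13, array weights 13 and both C libraries left out 15, and 1 library left out gave 0 to 15. Array weights gave 20 in blastocysts against morulae. One library left out gave 24 to 33 at the 16-cell stage against the 8-cell stage, 37 to 44 in blastocysts against morulae and 43 to 47 in blastocysts against oocytes. The causes were not tested beyond the smaller number of members that RPKM leaves.

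Whether the letters A to C pair libraries across stages is not known. Same-letter deviations correlated at -0.30 to 0.39 across genes, and with 3 libraries per stage this cannot settle it. With the letter as a replicate block 14 members were called at the 2-cell stage against oocytes, 30 at the 16-cell stage against the 8-cell stage, 9 in morulae against 16-cell embryos, 43 in blastocysts against morulae and 47 in blastocysts against oocytes, with none at the other steps. Depth limits low members, since 3 reads amount to up to 0.125 RPM.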
